A study of Mus musculus with 20 samples.

Results

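The change in each gene's mRNA from the G2 zygote to the 2-cell embryo was compared between inbred C57BL/6J mice and B6CASTF1 hybrids, by subtracting the C57BL/6J log2 fold change from the B6CASTF1 log2 fold change. Genes were taken when their mean normalized count was at least 100 in both strains, which gave 8095 of the 24411 gene symbols. Of these, 315 had no adjusted p in 1 or both deposited tables, and the other 7780 were tested. At the edge of this minimum, Mon1b and Sdhaf3 entered with lower means of 100.04 and 100.07, while Kif21a and Ddx26b stayed out at 99.98 and 99.99; in the authors' deposited tables of C57BL/6J and B6CASTF1 the log2 fold changes were -8.40 and -0.18 for Mon1b, 0.42 and -2.01 for Sdhaf3, -2.02 and -2.88 for Kif21a, and 9.16 and 10.74 for Ddx26b.

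The C57BL/6J groups used for this step were 3 samples of G2 zygotes and 3 of 2-cell embryos in G2, and the B6CASTF1 groups were 3 samples of G2 zygotes and 2 of 2-cell embryos in G2. G1 zygotes (3 samples per strain) and C57BL/6J MII eggs (3 samples) come in where earlier stages are given, and all deposited tables of a strain share 1 mean per gene. Each sample was an untreated, wild-type batch of 10 to 15 eggs or embryos, and every group shares the same handling: the eggs were held with dbcAMP, matured in vitro once it was removed, and, for the embryo groups, fertilized by IVF and grown in KSOM under low oxygen. Whether the B6CASTF1 eggs or the embryos are hybrid, and which parent gave which genome, are not given in the labels. The age of the females, and whether samples came from separate females or days, are not given either. The p-values therefore speak only of the spread among these samples, which may be technical. The library numbers in the labels ran from 72585 to 72602 in C57BL/6J and from 65729 to 65736 in B6CASTF1, so the strain and whatever those numbers follow cannot be told apart.

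At fertilization the embryo lives on RNA that the oocyte stored, and most of that RNA is degraded by the 2-cell stage. Transcription of the embryo's own genome begins weakly in the zygote and strongly at the 2-cell stage, a transition called zygotic genome activation that starts earlier in mice than in most other mammals. A change in mRNA over this step therefore holds both the loss of maternal transcripts and the gain of embryonic ones, and a log2 fold change does not separate them. The 2-cell stage has its own short burst of transcripts, among them the Zscan4, Tcstv and Trim43 families, followed by genes for ribosomes, RNA processing and transcription.

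Most genes changed with the same sign in both strains, and a minority differed in how far. Of the 7780 genes tested, 6598 had log2 fold changes of the same sign, and 3853 passed the authors' threshold in the same direction in both strains. In C57BL/6J 2312 genes (29.7%) rose and 2030 (26.1%) fell, and in B6CASTF1 3218 (41.4%) rose and 3018 (38.8%) fell, at an adjusted p under 0.05 in the authors' deposited tables. The SE of a gene's log2 fold change had a median of 0.84 in C57BL/6J and 0.35 in B6CASTF1, so the counts of calls within a strain do not show how the strains differ. Across genes the changes had a Pearson r of 0.82 and a Spearman rho of 0.86, as a description over 7780 genes that share the libraries.

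The difference itself was tested per gene against the combined SE of the strains' separate fits, here called the strain test, with a two-sided normal p adjusted by Benjamini-Hochberg over all 12573 genes tested in both strains. A positive difference, called higher below, means that the gene rose more or fell less in B6CASTF1. Over all genes tested, 11.6% were called higher and 5.03% lower. Among the 7780 genes with a mean of at least 100, 975 (12.5%) were higher and 486 (6.25%) lower. Of the same 7780 genes, 2329 had an unadjusted p under 0.05 in either direction. The unadjusted counts of gene lists below are to be read beside that number. The median difference over these genes was 0.13 on the log2 scale, and the median SE of the difference was 0.94. Subtracting that median lowered the share of higher genes among those called from 66.7% to 59.9%. The test treats the authors' SEs as known: with a t distribution with 5 degrees of freedom 0 genes were called (smallest adjusted p 0.133, with 1533 genes at an unadjusted p under 0.05), and with 13 degrees of freedom, chosen after the data were examined, 613 were higher and 202 lower.

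**Figure D1:**
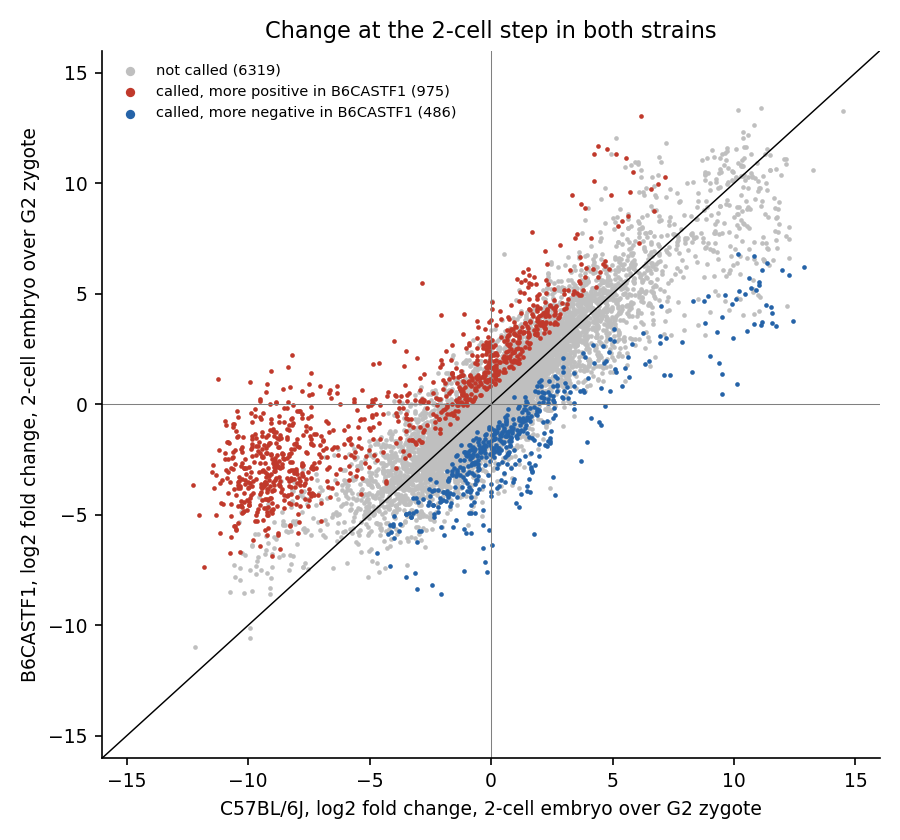
The log2 fold change from G2 zygote to 2-cell embryo is plotted for 7780 genes, C57BL/6J on the x axis and B6CASTF1 on the y axis, with the diagonal marking equal change and colour marking the 975 genes called higher and the 486 called lower. The higher genes form a separate cloud at C57BL/6J changes far below 0, where B6CASTF1 changes were mostly smaller, besides a band along the diagonal; the lower genes lie mostly in a band below it.

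The higher and lower genes are described here by the stage at which the strains' levels were further apart. Levels given here are approximate mean normalized counts of a stage, solved from the mean over all samples of a strain and the fold changes between its stages; the strains were normalized separately, so a level is compared between strains only as a description. In pooled embryos, fewer cells of a type and less RNA per cell cannot be told apart. The 975 higher genes had a median log2 fold change of -3.96 in C57BL/6J and -0.24 in B6CASTF1 in the authors' deposited tables. For 770 of them (79.0%) the strains' levels were further apart in 2-cell embryos than in G2 zygotes. The 486 lower genes had medians of 0.53 and -1.83 in the authors' deposited tables, and 222 of them (45.7%) were further apart in 2-cell embryos and 264 in G2 zygotes. A called difference requires a gap between the strains at 1 of these stages or at both. Of the higher genes, 290 had a level under 1 in C57BL/6J 2-cell embryos. The share over all genes tested was not worked out, so these counts are not read as a trait of the called genes.

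A group of transcripts was near 0 in C57BL/6J 2-cell embryos and present in B6CASTF1 2-cell embryos. An implied level under 1 was found for 370 genes in C57BL/6J 2-cell embryos against 11 in B6CASTF1 2-cell embryos, and for 110 and 57 in the G2 zygotes of the same strains. In G1 zygotes the counts were 208 and 54, and in C57BL/6J MII eggs 115. C57BL/6J thus had more such genes at every stage measured in both strains. Of the 370 genes, 290 were called higher, which is 29.7% of all higher genes. Their median level was 249.8 in C57BL/6J G2 zygotes, 347.1 in B6CASTF1 G2 zygotes and 46.7 in B6CASTF1 2-cell embryos, and 96 of them had at least 100 in B6CASTF1 2-cell embryos. In B6CASTF1 312 of the 370 fell and 3 rose, so most of these transcripts also dropped in that strain.

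The 3 genes that rose in B6CASTF1 were named after their values were seen. Nrbp1, a pseudokinase that acts as an adaptor in protein turnover, had levels of 452 in MII eggs, 486 in G1 zygotes, 264 in G2 zygotes and 0.889 in 2-cell embryos of C57BL/6J, and of 958, 1725 and 8016 from G1 zygote to 2-cell embryo in B6CASTF1. Htt, which encodes huntingtin, went from 81.0 in G2 zygotes to 0.246 in 2-cell embryos of C57BL/6J and from 68.8 to 222 in B6CASTF1. The predicted gene 2210018M11Rik went from 338 in G2 zygotes to 0.895 in 2-cell embryos of C57BL/6J and from 584 to 948 in B6CASTF1. All 3 were present in the zygotes of both strains, and the strains' levels were further apart in 2-cell embryos than in G2 zygotes, where Nrbp1 already differed.

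Of the 370 genes, 146 shared one lowest fitted level in C57BL/6J 2-cell embryos (0.245 to 0.247, within 1%), and for such genes the size of the fold is set by the fit and is not given. Whether these were counts of 0 cannot be read from tables that hold no value per sample. Without the 370 genes, 685 genes were higher and 486 lower. With levels of at least 10 in G2 zygotes and 2-cell embryos of both strains, 525 of 6769 genes were higher and 420 lower, a share of 55.6% higher in place of 66.7%. The summed level over all genes was 1.85e+07 in C57BL/6J G2 zygotes, 2.02e+07 in C57BL/6J 2-cell embryos, 1.84e+07 in B6CASTF1 G2 zygotes and 2.38e+07 in B6CASTF1 2-cell embryos. Its part, and that of the unknown depth of each sample, in the near-0 levels was not tested.

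**Figure D2:**
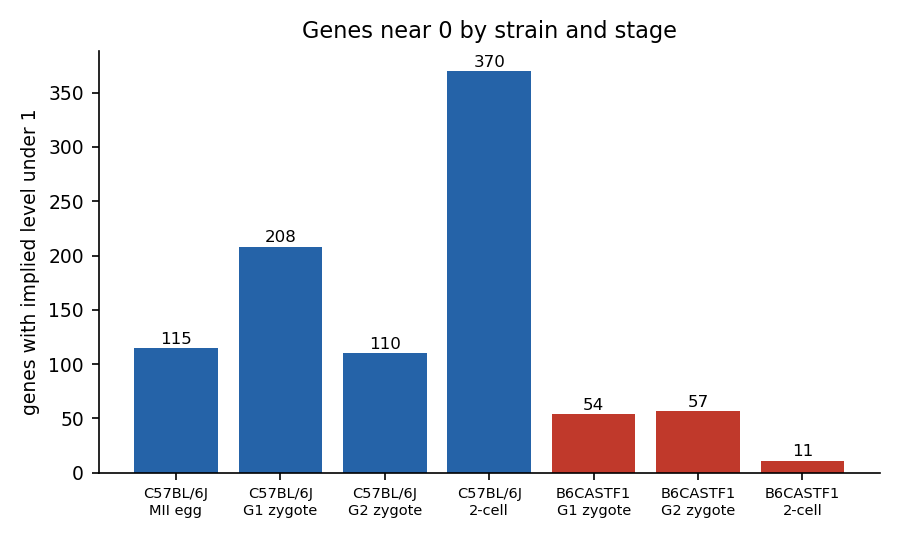
Bars give the number of the 7780 tested genes whose implied mean normalized count was under 1 in each of the 7 groups, C57BL/6J in blue and B6CASTF1 in red. The C57BL/6J 2-cell embryos had 370 such genes and the B6CASTF1 2-cell embryos 11, the highest and the lowest bar.

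Among genes with levels of at least 10 at both stages in both strains, the 10 with the largest called positive differences all had a lower level in 2-cell embryos than in G2 zygotes of C57BL/6J. Ube2e1, a ubiquitin-conjugating enzyme, had the largest: it went from 329 in G2 zygotes to 45.4 in 2-cell embryos of C57BL/6J and from 155 to 6902 in B6CASTF1 (difference 8.33, SE 1.63, adjusted p = 1.11e-05 in the strain test; 95% interval 5.14 to 11.52). Otulin, which removes linear ubiquitin chains, went from 246 in G2 zygotes to 58.8 in 2-cell embryos of C57BL/6J and from 66.8 to 1089.6 in B6CASTF1 (difference 6.09, SE 1.44, adjusted p = 4.35e-04 in the strain test). Both stood lower at the 2-cell stage of C57BL/6J than at any earlier stage of that strain, and higher at the 2-cell stage of B6CASTF1 than before. In the authors' deposited tables neither change in C57BL/6J passed the threshold, with log2 fold changes of -2.86 for Ube2e1 (adjusted p = 0.120) and -2.07 for Otulin (adjusted p = 0.197).

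Metabolic enzymes of this group fell in C57BL/6J and were not called in B6CASTF1. Ip6k2, a kinase that makes inositol pyrophosphates, went from 1658 in G2 zygotes to 14.8 in 2-cell embryos of C57BL/6J and from 842 to 499 in B6CASTF1 (difference 6.06, SE 1.05, adjusted p = 5.05e-07 in the strain test). Fpgs, which adds glutamates to folates, went from 719.7 in G2 zygotes to 14.4 in 2-cell embryos of C57BL/6J and from 1007 to 1201 in B6CASTF1 (difference 5.90, SE 1.10, adjusted p = 3.64e-06 in the strain test). Got2, the mitochondrial aspartate aminotransferase, went from 614 in G2 zygotes to 12.4 in 2-cell embryos of C57BL/6J and from 210.4 to 224 in B6CASTF1 (difference 5.72, SE 1.37, adjusted p = 5.49e-04 in the strain test). None of these 3 passed the authors' threshold in B6CASTF1, with adjusted p = 0.147, 0.472 and 0.899 in the authors' deposited table. Pdcd7, a protein of the minor spliceosome, fell in both strains, from 1487 in G2 zygotes to 12.1 in 2-cell embryos of C57BL/6J and from 2490.5 to 823 in B6CASTF1 (difference 5.34, SE 0.95, adjusted p = 1.07e-06 in the strain test).

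With the same limit on levels, the 10 genes with the largest called negative differences all had a lower level in 2-cell embryos than in G2 zygotes of B6CASTF1. Wasf3, which promotes actin branching, went from 40.2 in G2 zygotes to 246 in 2-cell embryos of C57BL/6J and from 197 to 11.5 in B6CASTF1 (difference -6.71, SE 1.89, adjusted p = 0.00452 in the strain test; 95% interval -10.41 to -3.01). Vwa8, a mitochondrial ATPase, went from 131 in G2 zygotes to 757 in 2-cell embryos of C57BL/6J and from 509 to 51.7 in B6CASTF1 (difference -5.83, SE 1.54, adjusted p = 0.00214 in the strain test). Opa3, a mitochondrial protein, went from 64.2 in G2 zygotes to 1486 in 2-cell embryos of C57BL/6J and from 222 to 116 in B6CASTF1 (difference -5.47, SE 1.01, adjusted p = 3.19e-06 in the strain test). Wasf3 and Vwa8 fell past the authors' threshold in B6CASTF1 alone, whereas Opa3 rose in C57BL/6J and was not called in B6CASTF1 in the authors' deposited tables.

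A Polycomb protein and a transcription factor were among them. Scmh1, of the Polycomb group, went from 132 in G2 zygotes to 369 in 2-cell embryos of C57BL/6J and from 462 to 30.5 in B6CASTF1 (difference -5.40, SE 0.68, adjusted p = 8.14e-13 in the strain test). Glis1, a zinc finger factor, went from 27.6 in G2 zygotes to 82.9 in 2-cell embryos of C57BL/6J and from 477 to 30.6 in B6CASTF1 (difference -5.55, SE 1.80, adjusted p = 0.0169 in the strain test). Scmh1 was called in both strains with opposite signs, while the change of Glis1 in C57BL/6J had an adjusted p of 0.458 in the authors' deposited table. Shtn1, a cytoskeletal protein of growing axons, was at 373 and 353 in C57BL/6J and fell from 641 to 12.4 in B6CASTF1 (difference -5.62, SE 1.48, adjusted p = 0.00214 in the strain test). Rdh14, a retinol dehydrogenase, and Uckl1, a uridine kinase homologue, had differences of -5.80 (SE 2.15) and -5.29 (SE 1.51), with adjusted p = 0.0433 and 0.00549 in the strain test. Rdh14 had the widest interval of the 20, -10.01 to -1.59.

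**Figure D3:**
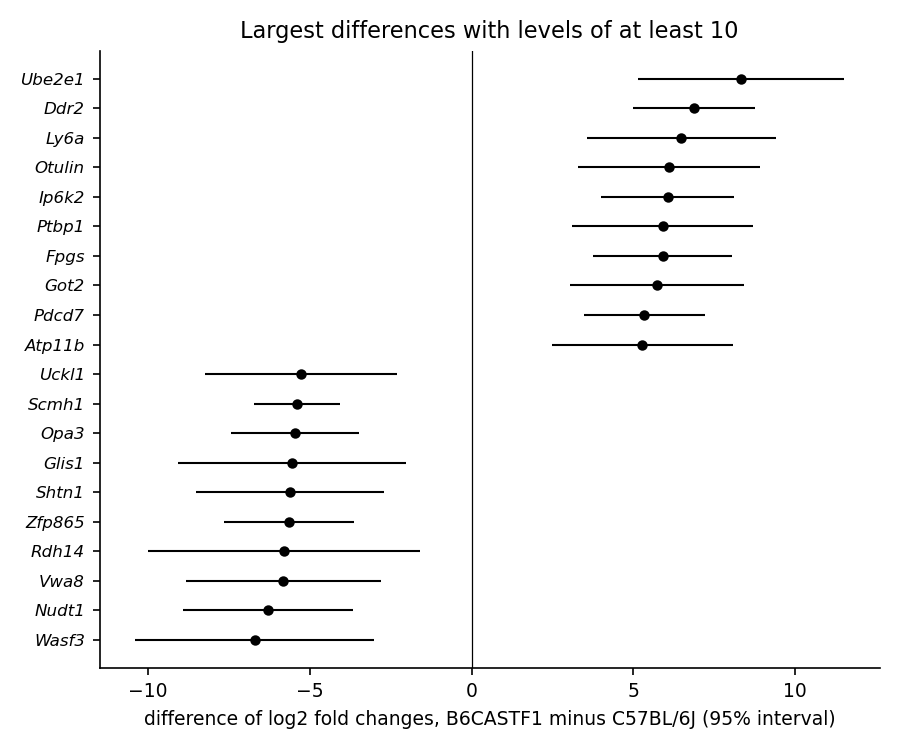
Points are the differences of log2 fold changes, B6CASTF1 minus C57BL/6J, of the 10 highest and 10 lowest called genes with levels of at least 10, and bars are 95% intervals from the combined SE. Ube2e1 has the highest difference at 8.33 and Wasf3 the lowest at -6.71, and the bars of Rdh14 and Wasf3 are the widest of the lower genes.

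Opposite calls in the strains were rare: 43 genes rose in B6CASTF1 and fell in C57BL/6J, and 25 did the reverse, together 0.874% of the genes tested, against 3853 with calls in the same direction. That their difference passed the strain test follows largely from the opposite calls. Ptbp1, a splicing repressor that binds pyrimidine-rich RNA, went from 259 in G2 zygotes to 22.9 in 2-cell embryos of C57BL/6J and from 488 to 2574 in B6CASTF1 (difference 5.90, SE 1.43, adjusted p = 6.56e-04 in the strain test). Ddr2, a collagen-binding receptor kinase, went from 278 in G2 zygotes to 17.5 in 2-cell embryos of C57BL/6J and from 129 to 951 in B6CASTF1 (difference 6.87, SE 0.96, adjusted p = 2.22e-10 in the strain test). Ly6a, a surface antigen of stem cells in other tissues, went from 653 in G2 zygotes to 26.4 in 2-cell embryos of C57BL/6J and from 304 to 1099.7 in B6CASTF1 (difference 6.48, SE 1.49, adjusted p = 2.68e-04 in the strain test). All 3 were above 100 in the G2 zygotes of both strains, and their strain order at G2 was not the same: Ptbp1 was higher in B6CASTF1 and the other two were higher in C57BL/6J.

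The membrane ATPases Atp11b, a phospholipid flippase, and Atp13a2, a lysosomal polyamine transporter, also rose in B6CASTF1 and fell in C57BL/6J. Atp11b went from 366 in G2 zygotes to 30.9 in 2-cell embryos of C57BL/6J and from 185 to 606 in B6CASTF1 (difference 5.28, SE 1.43, adjusted p = 0.00294 in the strain test). Atp13a2 went from 205 in G2 zygotes to 48.3 in 2-cell embryos of C57BL/6J and from 72.8 to 236 in B6CASTF1 (difference 3.79, SE 0.90, adjusted p = 4.56e-04 in the strain test). In the other direction, Nudt1, which clears oxidized nucleotides from the precursor pool, went from 53.7 in G2 zygotes to 705 in 2-cell embryos of C57BL/6J and from 411 to 69.0 in B6CASTF1 (difference -6.29, SE 1.34, adjusted p = 7.52e-05 in the strain test). Tecr, the enoyl-CoA reductase of fatty acid elongation, had the smallest SE of these: it went from 1050.1 in G2 zygotes to 5623 in 2-cell embryos of C57BL/6J and from 1619.7 to 509 in B6CASTF1 (difference -4.09, SE 0.51, adjusted p = 4.46e-13 in the strain test). Mtmr2, a phosphoinositide phosphatase, went from 441 in G2 zygotes to 2043 in 2-cell embryos of C57BL/6J and from 794 to 219 in B6CASTF1 (difference -4.07, SE 0.93, adjusted p = 2.71e-04 in the strain test). The adhesion receptor gene Adgrv1 and the zinc finger gene Zfp865 had differences of -4.18 (SE 1.07) and -5.65 (SE 1.03), with adjusted p = 0.00134 and 2.07e-06 in the strain test.

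**Figure D4:**
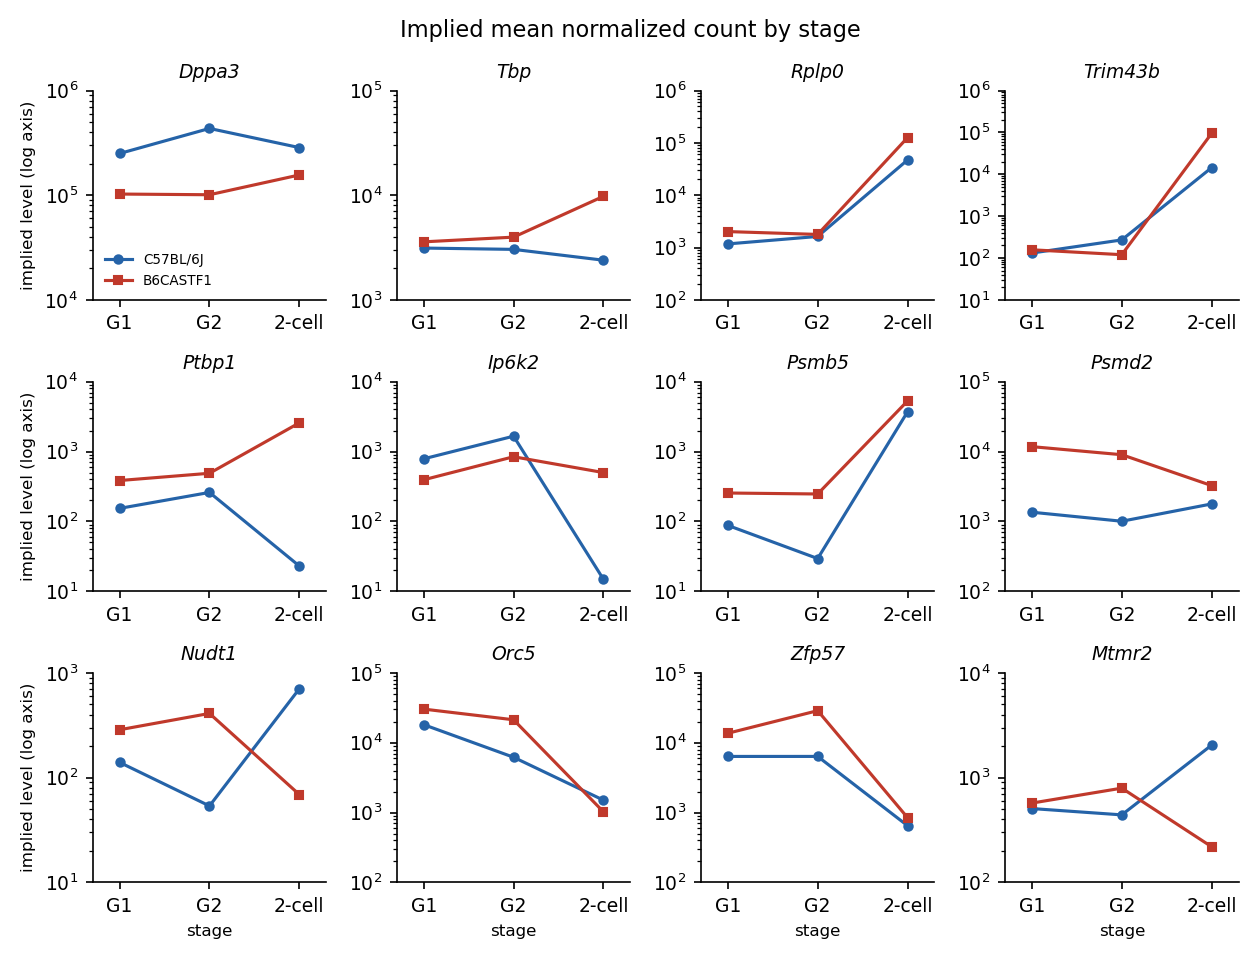
Implied mean normalized counts (log axis) of 12 genes are plotted at the G1 zygote, G2 zygote and 2-cell stages, C57BL/6J as blue circles and B6CASTF1 as red squares; no error is drawn because levels were worked out from fold changes. The lines of Ptbp1 move apart after G2, those of Nudt1 and Mtmr2 cross between G2 and the 2-cell stage, those of Zfp57 are apart at G2 and close at the 2-cell stage, and those of Psmd2 are apart at every stage.

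Most genes of the 2-cell burst rose in both strains, 22 of 31 in C57BL/6J and 25 in B6CASTF1 in the authors' deposited tables. Of the 31, 8 (25.8%) were called higher and 0 lower (0 at an unadjusted p under 0.05), against 12.5% and 6.25% of all genes. Not all of the higher genes rose. AU022751 fell in both strains, from 8330 in G2 zygotes to 26.5 in 2-cell embryos of C57BL/6J and from 11285 to 257 in B6CASTF1. Cphx2 fell from 1912 in G2 zygotes to 0.793 in 2-cell embryos of C57BL/6J, and Trim43a, Trim43b and Trim43c are close copies. The median difference was 1.10 against 0.13 for all genes. That median is the value of Duxbl2 and Duxbl3, whose fitted values were identical, so the same measurement may be counted more than once. Trim43b went from 270.4 in G2 zygotes to 14375 in 2-cell embryos of C57BL/6J and from 120.0 to 94593 in B6CASTF1 (difference 3.89, SE 0.38, adjusted p = 1.86e-20 in the strain test). Its near-identical copy Trim43a went from 70.1 in G2 zygotes to 6686 in 2-cell embryos of C57BL/6J and from 97.4 to 83249 in B6CASTF1 (difference 3.17, SE 0.63, adjusted p = 1.49e-05 in the strain test). Both copies stood higher in the 2-cell embryos of B6CASTF1, while their order in G2 zygotes was not the same. Sp110, a nuclear body protein, went from 5719.5 in G2 zygotes to 24327 in 2-cell embryos of C57BL/6J and from 11408 to 135341 in B6CASTF1 (difference 1.48, SE 0.28, adjusted p = 7.44e-06 in the strain test). Trim43 and Sp110 belong to families of close copies, between which the authors' counting can have split reads. With levels of at least 10 throughout, 7 of 24 were higher and 0 lower, against 525 and 420 of 6769 genes. With SEs raised 1.5 times 4 of the 31 were higher, against 298 of 7780 genes, and a minimum mean of 10 gave 1 lower gene. Measured against G1 in place of G2 zygotes, the differences of Trim43b and Trim43a were 2.46 and 1.75.

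Other well-known burst genes did not pass the strain test. Zfp352 went from 61.7 in G2 zygotes to 1062 in 2-cell embryos of C57BL/6J and from 45.3 to 6537 in B6CASTF1 (difference 3.07, 95% interval 0.45 to 5.68, adjusted p = 0.10). Zscan4d, of a multicopy family that acts at telomeres, went from 92.3 in G2 zygotes to 580.0 in 2-cell embryos of C57BL/6J and from 676 to 2523 in B6CASTF1 (difference -0.75, 95% interval -3.44 to 1.94, adjusted p = 0.799). The intervals hold differences of more than 1 on the log2 scale in at least 1 direction, so these genes are not shown to act alike. Dux, the multicopy activator of the burst, Klf5, a first-lineage factor, and Hspa1a, an inducible chaperone, had a mean under 100 in 1 or both strains and fell outside the 7780 genes. Klf5 was among the 12573 genes of the strain test and passed it (adjusted p = 0.0129), at 0.193 and 382 in C57BL/6J and 22.7 and 616 in B6CASTF1, while Dux did not (adjusted p = 0.762). Hspa1a had no adjusted p in C57BL/6J.

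Obox homeobox genes are oocyte and early embryo factors in a cluster of close copies. Of 6 tested, 2 were higher (33.3%) and 0 lower (0 at an unadjusted p under 0.05), against 12.5% and 6.25% of all genes. Obox7 fell in both strains but less in B6CASTF1, from 20941 in G2 zygotes to 872 in 2-cell embryos of C57BL/6J and from 13079 to 4358 in B6CASTF1 (difference 3.0, SE 0.32, adjusted p = 3.08e-17 in the strain test). Obox3 rose further in B6CASTF1, from 128 in G2 zygotes to 13452 in 2-cell embryos of C57BL/6J and from 186 to 79265 in B6CASTF1 (difference 2.02, SE 0.62, adjusted p = 0.0103 in the strain test). Obox6 and Obox5 had differences of -0.62 (95% interval -2.04 to 0.80) and 0.14 (95% interval -0.59 to 0.86) and were not called. The family's median of 0.08 turned to -0.05 when the median of all genes was subtracted, so no direction is given for the family.

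Nr5a2, the nuclear receptor in the title of the series (chromosome 1, 136842571 to 136960448, GRCm38), rose in both strains and was not called different. It went from 83.9 in G2 zygotes to 724 in 2-cell embryos of C57BL/6J and from 187 to 3341 in B6CASTF1, with log2 fold changes of 3.11 and 4.16 in the authors' deposited tables. The difference was 1.05 (95% interval -0.51 to 2.61, adjusted p = 0.422 in the strain test), which neither shows equal induction nor separates the strains. Esrrb, a receptor of the same superfamily, fell from 853 in G2 zygotes to 16.1 in 2-cell embryos of C57BL/6J and from 328 to 31.3 in B6CASTF1 (difference 2.33, adjusted p = 0.179). Of 11 nuclear receptors tested, Pparg was higher and Nr1h2 lower, 9.09% in each direction, against 12.5% and 6.25% of all genes. Where all levels were at least 10, 0 of 8 were called, against 945 of 6769 genes. Both called receptors had a level under 10 in C57BL/6J. Pparg, a lipid-sensing receptor, fell from 464 in G2 zygotes to 2.70 in 2-cell embryos of C57BL/6J and from 566 to 55.2 in B6CASTF1 (difference 4.07, SE 0.98, adjusted p = 6.29e-04 in the strain test). Nr1h2, the oxysterol receptor LXR beta, rose from 3.71 in G2 zygotes to 154 in 2-cell embryos of C57BL/6J and from 174 to 313 in B6CASTF1 (difference -4.53, SE 1.47, adjusted p = 0.0169 in the strain test), but measured from G1 zygotes its difference was -0.82.

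Of 25 candidate activation and pluripotency factors, 3 were higher and 1 lower, near the shares of all genes, with a median difference of 0.95. Tfap2c, an AP-2 factor of early lineages, was at 260.2 and 236 in C57BL/6J and rose from 221 to 1443 in B6CASTF1 (difference 2.85, SE 0.67, adjusted p = 4.17e-04 in the strain test). Nfyb, a subunit of the CCAAT-binding factor, rose in both strains, from 1070.1 in G2 zygotes to 5789 in 2-cell embryos of C57BL/6J and from 620.4 to 7935 in B6CASTF1 (difference 1.24, SE 0.35, adjusted p = 0.00478 in the strain test). Tcf3, an E-protein, was the third, at 136 and 0.246 in C57BL/6J and 194 and 87.1 in B6CASTF1. The lower gene, Yy1, had G2 levels of 0.194 in C57BL/6J and 15.7 in B6CASTF1 and 2-cell levels of 1455 and 1173. Where all levels were at least 10, 2 of 21 were higher and 0 lower, against 525 and 420 of 6769 genes.

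Of 9 first-lineage genes, the paralogous Hippo pathway coactivators Wwtr1 and Yap1 were called in opposite directions. That is 11.1% in each direction, against 12.5% higher and 6.25% lower of all genes. Wwtr1, also known as Taz, was at 515 and 477 in C57BL/6J and rose from 149.8 to 1235 in B6CASTF1 (difference 3.15, SE 0.71, adjusted p = 2.21e-04 in the strain test). Yap1 went from 1015 in G2 zygotes to 1455 in 2-cell embryos of C57BL/6J and from 1153 to 552 in B6CASTF1 (difference -1.58, SE 0.52, adjusted p = 0.0195 in the strain test). Their DNA-binding partner Tead4 rose from 8.37 in G2 zygotes to 430.5 in 2-cell embryos of C57BL/6J and from 3.55 to 581 in B6CASTF1 and was not called different (difference 1.67, 95% interval -3.07 to 6.41). Measured from G1 zygotes, the difference of Wwtr1 was 1.81.

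Most oocyte-specific genes fell in both strains, 39 of 50 in C57BL/6J and 43 of 50 in B6CASTF1 in the authors' deposited tables. The strain differences went both ways, 8 higher (16%) and 6 lower (12%), against 12.5% and 6.25% of all genes, with a median of -0.31. Dppa3, a maternal protein that protects the oocyte genome from methylation (chromosome 6, 122626410 to 122630272, GRCm38), moved in opposite directions at very high abundance. It was at 227932 in MII eggs, 250274 in G1 zygotes, 434077 in G2 zygotes and 284901 in 2-cell embryos of C57BL/6J, and at 102535, 100995 and 155995 from G1 zygote to 2-cell embryo in B6CASTF1. In the authors' deposited tables the log2 fold changes were -0.61 (SE 0.16, adjusted p = 3.54e-04) and 0.63 (SE 0.16, adjusted p = 2.44e-04). The difference of 1.23 (SE 0.22, adjusted p = 1.73e-06 in the strain test) was 0.42 when measured from G1 zygotes, and the C57BL/6J level at G2 was the highest of its 4 stages.

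Oas1h, of the oligoadenylate synthetase family, fell from 11367 in G2 zygotes to 14.3 in 2-cell embryos of C57BL/6J and from 16847 to 569 in B6CASTF1 (difference 4.75, SE 0.43, adjusted p = 5.61e-24 in the strain test). Nlrp4c, an oocyte NLRP gene, went from 661 in G2 zygotes to 2.3 in 2-cell embryos of C57BL/6J and from 411 to 231 in B6CASTF1 (difference 7.34, SE 0.93, adjusted p = 1.35e-12 in the strain test). Both belong to families of close copies between which reads can be split. The genes called lower were Oas1d, Dnmt1, Nlrp4a, Tle6, Bmp15 and Npm2, which fell further in B6CASTF1. Bmp15, an oocyte growth factor, went from 26506 in G2 zygotes to 1640.1 in 2-cell embryos of C57BL/6J and from 53932 to 1608 in B6CASTF1 (difference -1.05, SE 0.34, adjusted p = 0.0178 in the strain test). With levels of at least 10 throughout, 4 of 46 were higher and 6 lower, against 525 and 420 of 6769 genes.

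Other well-known maternal transcripts did not pass the strain test. The differences were 0.68 (95% interval -0.31 to 1.66) for Gdf9, the oocyte growth factor, and -0.97 (95% interval -3.02 to 1.09) for Mos, the kinase of meiotic arrest. They were -0.52 (95% interval -1.21 to 0.16) for Btg4, an adaptor of maternal mRNA deadenylation, and -0.61 (95% interval -1.27 to 0.05) for Zp3, a zona pellucida protein. Bub1b, a spindle checkpoint kinase, had 0.07 (95% interval -1.30 to 1.44). With adjusted p between 0.231 and 0.970 in the strain test none was called, and Zp3 rose in both strains in the authors' deposited tables (1.69 in C57BL/6J and 1.08 in B6CASTF1).

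Of 40 meiotic and M-phase regulators, 11 were higher and 0 lower (1 at an unadjusted p under 0.05), with a median difference of 0.81, against 12.5% and 6.25% of all genes. With SEs raised 1.5 times 4 were higher, against 298 of 7780 genes. With the ratio of SDs 17 were higher and 1 lower, and after recentring 1 was lower. Pttg1, securin, fell from 231445 in G2 zygotes to 34217 in 2-cell embryos of C57BL/6J and from 39737 to 17483 in B6CASTF1 (difference 1.57, SE 0.30, adjusted p = 5.35e-06 in the strain test). Cdc20, an activator of the anaphase-promoting complex, went from 2860.1 in G2 zygotes to 4765 in 2-cell embryos of C57BL/6J and from 3298 to 29351 in B6CASTF1 (difference 2.42, SE 0.50, adjusted p = 4.23e-05 in the strain test). Aurkc, a meiotic Aurora kinase, fell from 10627 in G2 zygotes to 1022 in 2-cell embryos of C57BL/6J and from 12515 to 6586 in B6CASTF1 (difference 2.45, SE 0.61, adjusted p = 8.71e-04 in the strain test). Ccnb3, a meiotic cyclin, and Mad1l1, a spindle checkpoint protein, were near 0 in C57BL/6J 2-cell embryos, at 2.97 and 1.31, and at 610.4 and 514 in B6CASTF1. At levels of at least 10 throughout, 9 of 38 were higher and 0 lower, against 525 and 420 of 6769 genes. Measured from G1 zygotes, the difference of Pttg1 was 0.84.

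Genes for mRNA decay were called in both directions, 4 higher (11.4%) and 3 lower (8.57%) of 35, near the 12.5% and 6.25% of all genes. Restricted to levels of at least 10, 3 of 31 were higher and 1 lower, against 525 and 420 of 6769 genes. Calls among CCR4-NOT deadenylase subunits are given per gene and not as a trait of the complex. The scaffold Cnot1 went from 1443 in G2 zygotes to 2195 in 2-cell embryos of C57BL/6J and from 1194 to 6184 in B6CASTF1. Cnot3 went from 5615 in G2 zygotes to 384 in 2-cell embryos of C57BL/6J and from 4147 to 2875 in B6CASTF1. Both were higher, with differences of 1.77 (SE 0.38) and 3.34 (SE 0.51). Cnot10 and the catalytic subunit Cnot6l were lower, with -4.09 (SE 1.34) and -1.02 (SE 0.36), and adjusted p over these 4 genes ran from 9.54e-09 to 0.0348 in the strain test. Edc4, a scaffold of decapping, fell from 525 in G2 zygotes to 3.37 in 2-cell embryos of C57BL/6J and from 687 to 274 in B6CASTF1 (difference 5.96, SE 0.93, adjusted p = 1.78e-08 in the strain test).

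Nearly all cytosolic ribosomal protein genes rose in both strains, 75 of 78 in C57BL/6J and 76 of 78 in B6CASTF1 in the authors' deposited tables. Of the 78, 25 (32.1%) were higher and 0 lower (0 at an unadjusted p under 0.05), against 12.5% and 6.25% of all genes; 66 of 78 differences were above 0, with a median of 0.96. Rplp0, a stalk protein of the large subunit, went from 1629 in G2 zygotes to 46986 in 2-cell embryos of C57BL/6J and from 1780.1 to 125718 in B6CASTF1 (difference 1.29, SE 0.26, adjusted p = 3.08e-05 in the strain test). Rpl13, a large-subunit protein, went from 709 in G2 zygotes to 7504 in 2-cell embryos of C57BL/6J and from 339 to 11959 in B6CASTF1 (difference 1.74, SE 0.32, adjusted p = 3.19e-06 in the strain test). Rps24, of the small subunit, went from 4798 in G2 zygotes to 12464 in 2-cell embryos of C57BL/6J and from 674 to 8758 in B6CASTF1 (difference 2.32, SE 0.49, adjusted p = 5.02e-05 in the strain test). The count was 46 when the B6CASTF1 changes were scaled to the spread of C57BL/6J and 4 with SEs raised 1.5 times, with 0 lower in both cases. Over all 7780 genes, 298 were higher with SEs raised 1.5 times. From G1 zygotes the difference of Rplp0 was 0.64. Many ribosomal protein genes have near-identical pseudogenes that can share reads.

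Messages for ribosomal proteins are known for starting with a run of pyrimidines, the 5' terminal oligopyrimidine tract, through which their translation is regulated. The promoter windows below, from RefSeq on GRCm38.p6, run from 12 bases before to 18 bases from the annotated start and are shown 5' to 3' to compare ribosomal genes called higher with proteasome genes called lower; capitals mark a run of at least 6 C or T that begins with C within 5 bases of the start. In order they lie at chr14:24490666-24490695, plus strand; chr7:141447639-141447668, plus strand; chr4:86857350-86857379, minus strand; chr5:115559455-115559484, plus strand; chr16:20651640-20651669, plus strand; and chr14:54617978-54618007, minus strand.
Rps24: gcgctggggtCCTTCCTTgcgcgttgatat
Rplp2: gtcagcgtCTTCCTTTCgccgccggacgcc
Rps6: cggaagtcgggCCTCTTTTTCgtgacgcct
Rplp0: ttcgggtttcgaggaccgcctggttctcct
Psmd2: gacaacgcgcgtggCCTTCTgggaaaaggg
Psmb5: gttgcccttgctaaacatggcgctggctag
Such a run was found in 26 of the 58 ribosomal protein genes with a promoter entry (44.8%), 3 of 31 proteasome genes (9.68%), 12.4% of the 6011 tested genes with an entry and 11.9% of all 27025 genes with one. Among ribosomal protein genes it was in 8 of 19 called higher (42.1%) and 18 of 39 not called (46.2%). Rplp0 and Psmb5 have no such run in this window. Rplp2, of the stalk, and Rps6, of the small subunit, had differences of 2.09 (SE 0.55) and 1.41 (SE 0.41); these genes and Rps24 were chosen for display after their values were seen.

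The sequence CCGGAAG, on either strand of the 300 bases from 250 before to 50 after the start, was in 24 of 58 ribosomal protein genes (41.4%), 12 of 31 proteasome genes (38.7%), 22% of tested genes and 9.93% of all genes with an entry. It is the core letters of ETS factor sites. The Nr5a2-type letters TCAAGGTCA or TCAAGGCCA were in 1.2% of the higher and 0.804% of the lower genes, against 0.765% of tested genes and 1.15% of all. A match of letters is a description of these windows.

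Ribosome biogenesis factors had 10 of 48 higher (20.8%) and 1 lower (2.08%), against 12.5% and 6.25% of all genes, with a median difference of 0.95. Wdr43, of the small-subunit processome, rose from 1712 in G2 zygotes to 3516 in 2-cell embryos of C57BL/6J and from 2078 to 23284 in B6CASTF1 (difference 2.45, SE 0.38, adjusted p = 1.71e-08 in the strain test). Fbl, the fibrillarin methyltransferase of rRNA, went from 349.5 in G2 zygotes to 677 in 2-cell embryos of C57BL/6J and from 400.4 to 3669 in B6CASTF1 (difference 2.24, SE 0.53, adjusted p = 4.17e-04 in the strain test). Brix1, of large-subunit assembly, went from 45557 in G2 zygotes to 40844 in 2-cell embryos of C57BL/6J and from 13635 to 27519 in B6CASTF1 (difference 1.17, SE 0.27, adjusted p = 3.05e-04 in the strain test; 0.55 from G1 zygotes). Npm1 and Ncl, abundant nucleolar proteins, had differences of 1.30 (SE 0.31) and 1.58 (SE 0.44), with adjusted p = 5.91e-04 and 0.00446 in the strain test. Utp3 was the lower gene, at -1.64 (SE 0.51).

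Translation factors had 4 of 45 higher (8.89%) and 1 lower (2.22%), below the 12.5% and 6.25% of all genes. Eif4g2, which supports cap-independent initiation, went from 4640.4 in G2 zygotes to 5917 in 2-cell embryos of C57BL/6J and from 2892 to 11039.5 in B6CASTF1 (difference 1.58, SE 0.28, adjusted p = 1.18e-06 in the strain test; 0.86 from G1 zygotes). Eif5b, which joins the ribosomal subunits, went from 6029 in G2 zygotes to 7024 in 2-cell embryos of C57BL/6J and from 4064 to 10145 in B6CASTF1 (difference 1.10, SE 0.26, adjusted p = 3.68e-04 in the strain test). Eif4ebp1, the repressor of cap-dependent initiation, was lower from a G2 level of 2.05 in C57BL/6J and 57.6 in B6CASTF1, and both strains reached similar 2-cell levels of 2395 and 2037 (difference -5.04, SE 1.02, adjusted p = 2.47e-05 in the strain test; -1.95 from G1 zygotes). Of 20 aminoacyl-tRNA synthetases 0 were called in either direction in the strain test, against 12.5% and 6.25% of all genes. At an unadjusted p under 0.05, 0 were higher and 1 lower, against 2329 of 7780 genes in either direction. The difference of Aars, the alanine enzyme, was -3.07 (SE 1.57).

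Proteasome subunits were the gene list with lower calls and no higher ones: 6 of 37 (16.2%) were lower and 0 higher (1 at an unadjusted p under 0.05), against 6.25% and 12.5% of all genes. Their median difference of -0.27 became 0.07 when B6CASTF1 changes were scaled to the spread of C57BL/6J, with 1 gene then higher. With SEs raised 1.5 times 1 gene stayed lower, against 57 of 7780 genes. Psmb5, the chymotrypsin-like catalytic subunit, rose from 29.3 in G2 zygotes to 3697 in 2-cell embryos of C57BL/6J and from 246 to 5295 in B6CASTF1 (difference -2.55, SE 0.42, adjusted p = 1.44e-07 in the strain test; -1.02 from G1 zygotes). Psmd2, of the regulatory base, rose from 1002 in G2 zygotes to 1774 in 2-cell embryos of C57BL/6J and fell from 8999.9 to 3251 in B6CASTF1 (difference -2.29, SE 0.51, adjusted p = 1.81e-04 in the strain test). Psma7, an alpha-ring subunit, fell in both strains, from 23179 in G2 zygotes to 7540.4 in 2-cell embryos of C57BL/6J and from 13515 to 1693 in B6CASTF1 (difference -1.38, SE 0.31, adjusted p = 1.84e-04 in the strain test). For Psmb5 and Psmd2 the strains' levels were further apart in G2 zygotes than in 2-cell embryos. Psmc4, Psmd11 and Psmb3 were the other lower subunits, with differences of -2.77 (SE 1.0), -1.49 (SE 0.41) and -1.28 (SE 0.46).

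Nuclear-encoded oxidative phosphorylation genes had 2 of 73 higher (2.74%) and 4 lower (5.48%), below the 12.5% and near the 6.25% of all genes. Ndufa8 and Ndufa12, of respiratory complex I, were lower: Ndufa8 went from 1369 in G2 zygotes to 937 in 2-cell embryos of C57BL/6J and from 1191 to 154 in B6CASTF1 (difference -2.41, SE 0.45, adjusted p = 3.13e-06 in the strain test). Ndufa12 rose from 163 in G2 zygotes to 4067 in 2-cell embryos of C57BL/6J and from 105 to 385 in B6CASTF1 (difference -2.77, SE 0.73, adjusted p = 0.00226 in the strain test). Uqcr10, of complex III, was higher, from 2888 in G2 zygotes to 10071 in 2-cell embryos of C57BL/6J and from 427 to 3924 in B6CASTF1 (difference 1.40, SE 0.36, adjusted p = 0.00171 in the strain test), but only 0.20 from G1 zygotes.

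Genes of RNA polymerase II and its general factors had 13 of 43 higher (30.2%) and 0 lower (0 at an unadjusted p under 0.05). The shares of all genes were 12.5% and 6.25%, and the list had a median difference of 0.58. Tbp, the TATA-binding protein, was called in B6CASTF1 alone: it was at 2521, 3127, 3037 and 2394 from MII egg to 2-cell embryo in C57BL/6J and at 3585, 3976 and 9751 from G1 zygote on in B6CASTF1 (difference 1.64, SE 0.25, adjusted p = 9.82e-09 in the strain test). Taf10, a shared subunit of TFIID and SAGA, went from 1411 in G2 zygotes to 1332 in 2-cell embryos of C57BL/6J and from 2192 to 7657 in B6CASTF1 (difference 1.89, SE 0.37, adjusted p = 1.35e-05 in the strain test). Taf9, another shared subunit, rose in both, from 29268 in G2 zygotes to 64446 in 2-cell embryos of C57BL/6J and from 11600.3 to 47384 in B6CASTF1 (difference 0.89, SE 0.22, adjusted p = 6.89e-04 in the strain test; 0.51 from G1 zygotes). Other TFIID subunits called higher were Taf1, Taf7 and Taf11, with differences of 1.75 (SE 0.49), 0.75 (SE 0.27) and 2.19 (SE 0.56). Cdk9 and Supt5, which act in promoter-proximal pausing and elongation, had 2.33 (SE 0.74) and 2.15 (SE 0.55). With levels of at least 10 throughout, the 13 higher genes were among 42, against 525 of 6769 genes. With SEs raised 1.5 times 2 were higher, against 298 of 7780 genes.

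Spliceosome genes had 10 of 45 higher (22.2%) and 1 lower (2.22%), against 12.5% and 6.25% of all genes (median difference 0.60). Srsf3, an SR protein, fell in C57BL/6J and rose in B6CASTF1, from 2349 in G2 zygotes to 1243 in 2-cell embryos of C57BL/6J and from 4044 to 8520.3 in B6CASTF1 (difference 1.99, SE 0.35, adjusted p = 8.73e-07 in the strain test). Srsf6, of the same family, went from 178 in G2 zygotes to 399 in 2-cell embryos of C57BL/6J and from 87.5 to 2254 in B6CASTF1 (difference 3.52, SE 0.85, adjusted p = 6.14e-04 in the strain test; 1.24 from G1 zygotes). Snrpc, of the U1 snRNP, rose from 546 in G2 zygotes to 14139.9 in 2-cell embryos of C57BL/6J and from 266 to 23869.5 in B6CASTF1 (difference 1.79, SE 0.48, adjusted p = 0.00230 in the strain test; 0.49 from G1 zygotes). The lower gene was Sf3b4 of the U2 snRNP, with -2.68 (SE 0.72).

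DNA replication genes had 5 of 44 higher (11.4%) and 3 lower (6.82%), close to the 12.5% and 6.25% of all genes. Calls among subunits of the origin recognition complex are given per gene and not as a trait of the complex. Orc6 fell in C57BL/6J and rose slightly in B6CASTF1, from 24469.7 in G2 zygotes to 11428 in 2-cell embryos of C57BL/6J and from 17857 to 24061 in B6CASTF1 (difference 1.53, SE 0.34, adjusted p = 1.73e-04 in the strain test). Orc5 fell in both and further in B6CASTF1, from 6196 in G2 zygotes to 1505 in 2-cell embryos of C57BL/6J and from 21333 to 1025 in B6CASTF1 (difference -2.34, SE 0.53, adjusted p = 2.34e-04 in the strain test; -1.30 from G1 zygotes). Orc1 and Orc4 were higher, with 2.77 (SE 0.83) and 1.04 (SE 0.34). Prim2, of primase, went from 608 in G2 zygotes to 964 in 2-cell embryos of C57BL/6J and from 407 to 2659 in B6CASTF1 (difference 2.04, SE 0.54, adjusted p = 0.00240 in the strain test), and its difference was 0.69 from G1 zygotes.

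DNA methylation and chromatin genes had 4 of 58 higher (6.9%) and 5 lower (8.62%), against 12.5% and 6.25% of all genes. Their median difference of -0.44 was the lowest of the lists of at least 5 tested genes. The 5 lower genes were Uhrf1, Dnmt3l, Zfp57, Asf1b and Dnmt1. Dnmt1, the maintenance methyltransferase, fell from 4746 in G2 zygotes to 679 in 2-cell embryos of C57BL/6J and from 10399.8 to 537 in B6CASTF1 (difference -1.47, SE 0.41, adjusted p = 0.00367 in the strain test; -0.73 from G1 zygotes). Zfp57, which keeps imprints methylated, fell from 6368 in G2 zygotes to 649 in 2-cell embryos of C57BL/6J and from 28817 to 846 in B6CASTF1 (difference -1.80, SE 0.41, adjusted p = 2.54e-04 in the strain test; -0.72 from G1 zygotes). Dnmt3l, the cofactor of de novo methylation, went from 547 in G2 zygotes to 2507 in 2-cell embryos of C57BL/6J and from 1148 to 1387 in B6CASTF1 (difference -1.92, SE 0.48, adjusted p = 0.00114 in the strain test). Uhrf1, the partner of Dnmt1, had -2.35 (SE 0.72). Dnmt1 and Zfp57 ended at similar 2-cell levels in the strains from higher G2 levels in B6CASTF1. Trim28, the corepressor that Zfp57 recruits, went the other way, from 447 in G2 zygotes to 1286 in 2-cell embryos of C57BL/6J and from 321 to 3537 in B6CASTF1 (difference 1.94, SE 0.61, adjusted p = 0.0125 in the strain test). Setd2, Setdb2 and Suz12 were the other higher genes, with 2.24 (SE 0.72), 1.37 (SE 0.40) and 0.85 (SE 0.30).

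Histone genes had 6 of 15 higher (40%) and 0 lower (0 at an unadjusted p under 0.05), against 12.5% and 6.25% of all genes. Their median difference of 1.55 was the highest of these lists. H3f3a, which encodes the replacement histone H3.3, went from 14005 in G2 zygotes to 17746 in 2-cell embryos of C57BL/6J and from 15611 to 44738 in B6CASTF1 (difference 1.2, SE 0.23, adjusted p = 1.79e-05 in the strain test). Its paralog H3f3b and H2afz, for the variant H2A.Z, had differences of 0.86 (SE 0.25) and 1.55 (SE 0.47). The replication-type genes Hist1h1a and Hist1h2aa were at 0.869 and 1.31 in C57BL/6J 2-cell embryos and at 97.6 and 19.6 in B6CASTF1, from G2 levels of 405 and 963 in C57BL/6J and 234 and 463 in B6CASTF1. Most replication-type histone mRNAs end without a poly(A) tail, and the libraries were primed with oligo-dT. Restricted to levels of at least 10, 4 of 13 were higher, against 525 of 6769 genes.

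Stress genes were called in both directions. Of 15 p53 and stress targets, 4 were higher (26.7%) and 2 lower (13.3%), against 12.5% and 6.25% of all genes. Ppp1r15a, or GADD34, which restores translation after stress, went from 445 in G2 zygotes to 237 in 2-cell embryos of C57BL/6J and from 949 to 6018 in B6CASTF1 (difference 3.58, SE 0.55, adjusted p = 1.11e-08 in the strain test). In C57BL/6J that change had an adjusted p of 0.119 in the authors' deposited table. Ddit3, or CHOP, went from 1042 in G2 zygotes to 139 in 2-cell embryos of C57BL/6J and from 893 to 978 in B6CASTF1 (difference 3.04, SE 1.05, adjusted p = 0.0271 in the strain test). Trp53inp1, a p53 target, was lower, from 1091 in G2 zygotes to 1654 in 2-cell embryos of C57BL/6J and from 3243 to 1189 in B6CASTF1 (difference -2.05, SE 0.53, adjusted p = 0.00180 in the strain test). Of 32 heat shock and chaperone genes, 5 (15.6%) were higher and 0 lower (1 at an unadjusted p under 0.05), against 12.5% and 6.25% of all genes. Hspa9, the mitochondrial HSP70, went from 1417 in G2 zygotes to 826 in 2-cell embryos of C57BL/6J and from 2528 to 5794 in B6CASTF1 (difference 1.97, SE 0.44, adjusted p = 1.61e-04 in the strain test), and Cct3, of the TRiC chaperonin, went from 1694 in G2 zygotes to 3481 in 2-cell embryos of C57BL/6J and from 3722 to 21095 in B6CASTF1 (difference 1.46, SE 0.38, adjusted p = 0.00156 in the strain test). Hsp90aa1 fell less in B6CASTF1, with 0.79 (SE 0.23) and an adjusted p of 0.00671 in the strain test.

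Imprinted genes are expressed from a single parental allele, and in a hybrid the parental alleles also differ in sequence. Whether the B6CASTF1 eggs or the embryos are hybrid is not given, and reads were not split by allele in these tables. Of 19 tested, 3 (15.8%) were higher and 0 lower (2 at an unadjusted p under 0.05), against 12.5% and 6.25% of all genes. Where all levels were at least 10, 2 of 17 were higher, against 525 of 6769 genes. Kcnq1ot1, a noncoding RNA read from the paternal allele, was at 818 and 865 in C57BL/6J and rose from 406 to 2419 in B6CASTF1 (difference 2.49, SE 0.45, adjusted p = 1.34e-06 in the strain test). Grb10, a growth inhibitor, went from 605 in G2 zygotes to 525 in 2-cell embryos of C57BL/6J and from 108 to 754 in B6CASTF1 (difference 3.01, SE 0.93, adjusted p = 0.0115 in the strain test). Mest was at 0.482 in C57BL/6J 2-cell embryos and 616 in B6CASTF1, from 725 and 2625 in G2 zygotes. Of 18 MHC, antigen presentation and interferon genes, Sp110, H2-D1 and H2-T10 were higher (16.7%) and 0 lower (0 at an unadjusted p under 0.05), against the same shares. H2-D1, a class I gene whose sequence varies among strains, went from 618 in G2 zygotes to 1832 in 2-cell embryos of C57BL/6J and from 50.5 to 1387 in B6CASTF1 (difference 3.21, SE 1.02, adjusted p = 0.0143 in the strain test). H2-T10 went from 889 in G2 zygotes to 40.2 in 2-cell embryos of C57BL/6J and from 764 to 572 in B6CASTF1 (difference 4.05, SE 1.09, adjusted p = 0.00255 in the strain test). How sequence differences of the CAST genome bear on read counts was not tested.

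Large families were set beside the shares of all genes, 12.5% higher and 6.25% lower. With levels of at least 10 throughout, 525 of all 6769 such genes were higher and 420 lower. Of 163 Zfp zinc finger genes, 18 were higher (11.0%) and 4 lower (2.45%), but 15 of the 18 had a level under 10 in C57BL/6J 2-cell embryos, and with levels of at least 10 throughout 3 of 140 were higher and 4 lower. Zfp60 fell from 1100.4 in G2 zygotes to 3.49 in 2-cell embryos of C57BL/6J and from 3551 to 325 in B6CASTF1 (difference 4.85, SE 0.66, adjusted p = 4.36e-11 in the strain test). Zfp414 and Zfp513 were at 0.483 and 0.908 in C57BL/6J 2-cell embryos and at 522 and 198 in B6CASTF1. Of 98 solute carriers, 9 were higher and 3 lower, and 8 of the 9 had a level under 10 in C57BL/6J 2-cell embryos, among them Slc35f3 at 0.246, Slc9a4 at 0.246 and Slc6a20b at 2.3. Of 523 predicted genes, 73 were higher (14.0%) and 19 lower (3.63%), but 35 of the 73 had a level under 10 in C57BL/6J 2-cell embryos, and at levels of at least 10 throughout 36 of 425 were higher and 15 lower. Gm5065 fell from 4734 in G2 zygotes to 9.13 in 2-cell embryos of C57BL/6J and from 3695 to 121 in B6CASTF1 (difference 4.09, SE 0.48, adjusted p = 1.10e-14 in the strain test), and Gm8801 from 1581 in G2 zygotes to 3.13 in 2-cell embryos of C57BL/6J and from 6669 to 453 in B6CASTF1 (difference 5.10, SE 0.65, adjusted p = 1.82e-12 in the strain test). Of 7 Prame-like and oogenesin genes 0 were called in the strain test. At an unadjusted p under 0.05, 0 of them were higher and 0 lower, against 2329 of 7780 genes in either direction. Oog1, Oog2 and Pramel5 had differences of -0.69 (SE 0.58), 0.74 (SE 0.77) and 2.11 (SE 2.88).

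**Figure D5:**
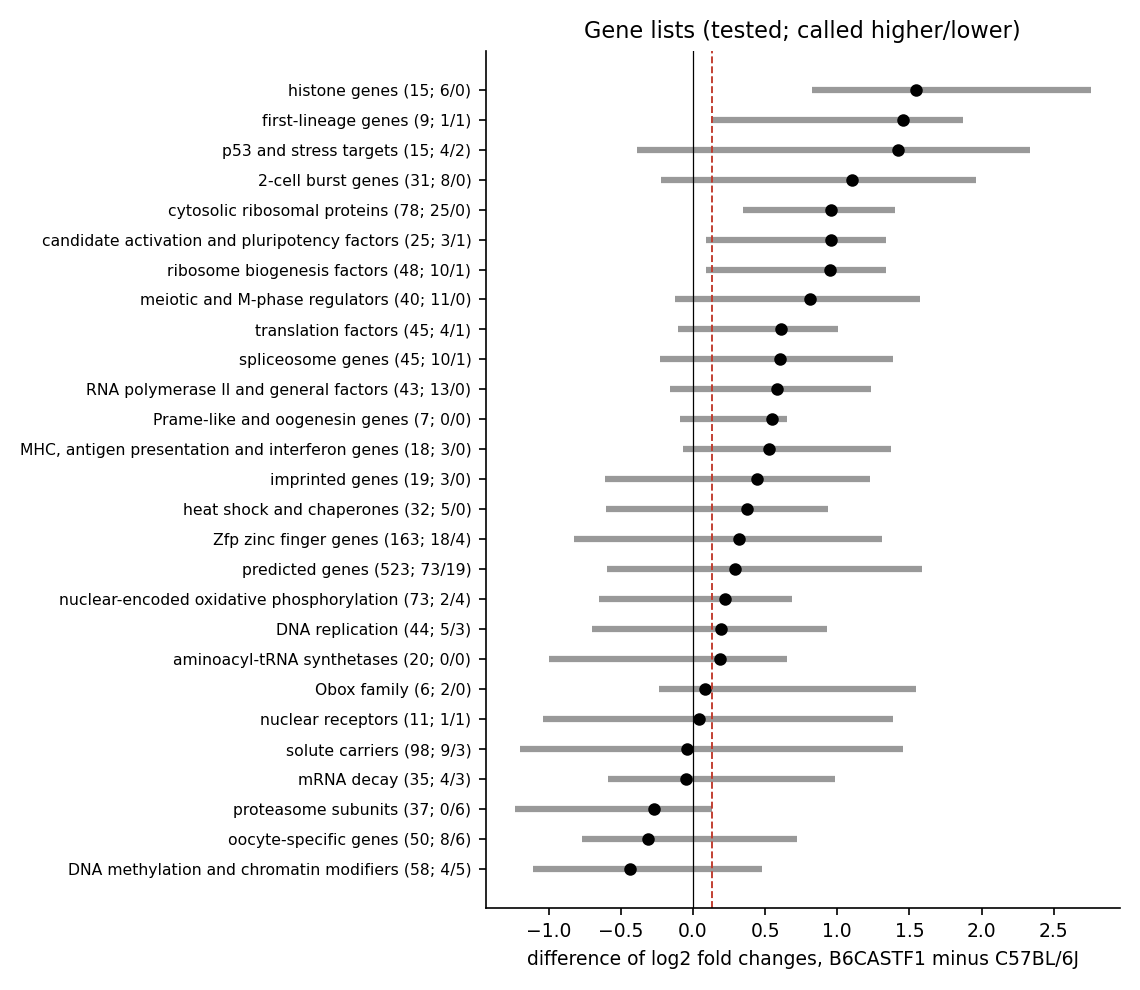
Each line is a gene list with at least 5 tested genes: the point is the median difference of log2 fold changes, B6CASTF1 minus C57BL/6J, the grey bar runs from the lower to the upper quartile, and the label gives the genes tested and those called higher and lower. The dashed line is the median of all 7780 genes, 0.13; histone genes lie highest at 1.55 and chromatin modifiers lowest at -0.44, with proteasome subunits at -0.27.

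The earlier step, from G1 to G2 zygotes, showed few strain differences by the same test: 43 genes (0.553%) were higher and 81 (1.04%) lower in B6CASTF1. The steps share the G2 samples. Measured from G1 in place of G2 zygotes, the 97 named genes with a called difference all kept its sign, and the difference was more than 1.5 times smaller for 24 of them and more than 1.5 times larger for 0. Besides those given above, the values from G1 zygotes were -3.02 for Wasf3, -2.10 for Glis1, 1.30 for Obox3, 2.34 for Ppp1r15a and 4.13 for Slc6a20b.

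Called genes were found at every abundance: in 5 equal groups by mean count, from low to high, 19.2%, 16.5%, 17.3%, 16.6% and 24.2% were called. The median SE of the difference fell from 1.54 to 0.46 over these groups, and the median size of a called difference from 6.02 to 1.55, so only large differences could pass among scarce transcripts. By chromosome, higher genes ranged from 7.20% of 250 genes on chromosome 16 to 15.7% of 362 on chromosome 3, and lower genes from 2.80% on chromosome 16 to 9.62% on chromosome 6. The X chromosome had 28 higher (10.4%) and 12 lower (4.48%) of 268. The median length of the longest annotated transcript was 3152.5 nt for higher, 3389 nt for lower and 3281 nt for all genes with a length.

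Markers of the labelled stages were present: all 12 oocyte markers had a level of at least 1 in every group, and the sum over 9 measured 2-cell markers rose from 3021 to 9839 between G2 zygotes and 2-cell embryos of C57BL/6J and from 5350 to 35179 in B6CASTF1. The sum was led by Tcstv1 in G2 zygotes and by Gm5662 in 2-cell embryos of both strains. Tcstv1 itself went down over this step, from 1281 to 617 in C57BL/6J and from 2949 to 2116 in B6CASTF1. Of 10 cumulus and granulosa markers 2 or 3 had a mean of 0, and their sum ranged from 302.0 to 2298 over the groups, mostly Cyp19a1 and, in 2-cell embryos, Amhr2. Of 10 testis and sperm markers 1 in C57BL/6J and 4 in B6CASTF1 had a mean of 0, with a sum of 101.5 to 965.2. Of 8 blood and oviduct markers 3 and 2 had a mean of 0; the sum was 64.4 to 125.0 before the 2-cell stage and 6349 in C57BL/6J and 9464 in B6CASTF1 2-cell embryos, led by Hba-a1 and Epcam. Epcam, an epithelial adhesion gene, rose from 4.83 in G2 zygotes to 2287 in 2-cell embryos of C57BL/6J and from 77.8 to 6336 in B6CASTF1 and was just outside the threshold (difference -2.54, SE 0.97, adjusted p = 0.0536). The part of other cells in the strain differences was not tested.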

How the data were processed

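RNA was measured by Smart-seq2 with oligo-dT priming in small egg or embryo batches, per the labels' protocols. The authors deposited 5 tables of stage comparisons from DESeq2 1.18.1, per the file names and the file headers, with a mean normalized count, a log2 fold change with its SE, and a p-value with its adjusted value for each gene. The submitters' processing notes also name bcl2fastq, kallisto, TopHat, Picard and genome build mm10, with no roles; counting method and design formula: not given in the sources used here. Since values per sample are not in these tables, library depth is unknown and intervals rest on the deposited SEs.

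For each gene the strain difference was taken as the B6CASTF1 minus the C57BL/6J log2 fold change, with the root of the summed squared SEs as its SE, a two-sided normal p and a Benjamini-Hochberg adjustment over 12573 genes (scipy 1.17.1 and pandas 2.3.3 under Python 3.11.15; figures with matplotlib 3.10.9). The calculation was run on simulated fold changes whose spread was set to the deposited SEs, so that run cannot show whether those SEs are right. A 95% interval is the normal one. Stage levels were solved from a strain's mean, its fold changes and its sample numbers. Named genes were the 10 largest called differences in each direction with levels of at least 10, the 5 opposite calls in each direction whose smaller absolute fold change was largest, the 3 smallest p-values of each gene list and 16 single genes; 1 of the genes so named is not reported here. Other list members given in the text, such as Cdc20, Trim28, Orc1 and Taf11, fall outside this rule and were picked after the calls were seen. Statements on the 97 named genes do not cover them. The genes and lists were chosen with earlier results of these data known. Alternatives were other thresholds, minimum counts, SEs, t distributions, scalings and the authors' shrunken fold changes. Promoters came from RefSeq (GRCm38.p6), matched by symbol for 6011 of 7780 genes; gene positions and lengths came from GENCODE M21, matched for 7487.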

Additional observations from a re-analysis of the deposited data

Results flagged for a closer look

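The change at the 2-cell step differed between the strains by the test of the difference itself for 975 genes with a more positive change in B6CASTF1 and 486 with a more negative one. The same test drew attention to the named genes below, and their differences of log2 fold changes, B6CASTF1 minus C57BL/6J, follow.

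Above 0 and largest first, with no stage under a level of 1, the differences were Ube2e1 8.33, Mad1l1 8.10, Ccnb3 7.93, Nlrp4c 7.34, Ddr2 6.87, Ly6a 6.48, Slc6a20b 6.41, Otulin 6.09, Ip6k2 6.06, Edc4 5.96, Ptbp1 5.90 and Fpgs 5.90. Next in size came Got2 5.72, Pdcd7 5.34, Atp11b 5.28, Gm8801 5.10, Hist1h2aa 4.96, Zfp60 4.85, Oas1h 4.75, Gm5065 4.09, Pparg 4.07, H2-T10 4.05, Trim43b 3.89 and Atp13a2 3.79. These were followed by Ppp1r15a 3.58, Srsf6 3.52, Cnot3 3.34, H2-D1 3.21, Trim43a 3.17, Wwtr1 3.15, Ddit3 3.04, Grb10 3.01, Obox7 3.0, Tfap2c 2.85, Kcnq1ot1 2.49 and Wdr43 2.45. Further genes above 0 were Fbl 2.24, Prim2 2.04, Obox3 2.02, Srsf3 1.99, Hspa9 1.97, Taf10 1.89, Snrpc 1.79, Cnot1 1.77, Rpl13 1.74, Tbp 1.64, Eif4g2 1.58 and Pttg1 1.57. Smaller positive differences were Orc6 1.53, Sp110 1.48, Cct3 1.46, Uqcr10 1.40, Rplp0 1.29, Nfyb 1.24, Dppa3 1.23, H3f3a 1.2, Brix1 1.17, Eif5b 1.10, Taf9 0.89 and Hsp90aa1 0.79.

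Below 0, the differences were Wasf3 -6.71, Nudt1 -6.29, Vwa8 -5.83, Rdh14 -5.80, Zfp865 -5.65, Shtn1 -5.62, Glis1 -5.55, Opa3 -5.47, Scmh1 -5.40, Uckl1 -5.29, Eif4ebp1 -5.04 and Nr1h2 -4.53. Closer to 0 were Adgrv1 -4.18, Tecr -4.09, Mtmr2 -4.07, Ndufa12 -2.77, Psmb5 -2.55, Ndufa8 -2.41, Orc5 -2.34, Psmd2 -2.29, Trp53inp1 -2.05, Dnmt3l -1.92, Zfp57 -1.80 and Yap1 -1.58. The remaining negative differences were Dnmt1 -1.47 and Psma7 -1.38.

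For genes with a level under 1 in C57BL/6J 2-cell embryos no size of the difference is given, and the adjusted p in the strain test was 2.52e-13 for 2210018M11Rik, 2.61e-13 for Nrbp1, 2.07e-11 for Zfp414, 7.83e-10 for Zfp513, 2.34e-09 for Mest, 3.42e-08 for Htt, 5.21e-08 for Slc35f3, 2.14e-06 for Hist1h1a, 3.47e-06 for Tcf3, 2.15e-05 for Slc9a4. All were higher in B6CASTF1.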

How the results depend on the processing

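No called difference of a named gene changed its sign under the alternatives run. Most of these alter only the SE, the threshold or the set of genes, under which the sign could not change. Counts of calls and some list medians moved. Of the genes with a more positive change in B6CASTF1 (975 as reported), 305 passed Bonferroni, 298 passed with SEs raised 1.5 times, 320 were left with a minimum mean of 1000 and 525 with levels of at least 10. Of those with a more negative change (486), 237 passed an adjusted p under 0.01, 58 passed Bonferroni, 57 passed with SEs raised 1.5 times and 212 were left with a minimum of 1000. A t distribution with 5 degrees of freedom left 0 in either direction, with a smallest p of 0.000109, and one with 13 degrees of freedom, chosen after the data were examined, left 613 and 202. The share of called genes that were higher was 66.7%, and it was 59.9% after subtracting the median difference, 64.5% after multiplying B6CASTF1 changes by the ratio of SDs (1.19), 84.0% with Bonferroni, 75.2% with 13 degrees of freedom and 55.6% with levels of at least 10. With SEs raised 1.5 times, higher calls fell to 4 burst genes, 4 ribosomal protein genes, 2 RNA polymerase II genes and 4 meiotic genes, and lower calls to 1 proteasome gene. With the ratio of SDs, higher calls were 46 ribosomal, 1 proteasome and 17 meiotic genes, and 1 meiotic gene was lower, as after recentring (1). A minimum of 10 gave 1 lower burst gene and 3165 genes that fell in C57BL/6J, and a minimum of 1000 gave an SD of C57BL/6J changes of 2.93. Of 97 named genes with a called difference, 51 passed Bonferroni, 50 passed with SEs raised 1.5 times, 89 passed with 13 degrees of freedom and 0 with 5. List medians changed sign in 9 of 108 cases, among them Obox genes (-0.05 recentred), nuclear receptors (-0.84 with the ratio of SDs) and proteasome subunits (0.07 with the ratio of SDs). No paired analysis was possible because these tables give fitted values only and the labels give no replicate numbers; leaving out each replicate was not run for the same reason. Scarce transcripts limit the test, since the SE of their difference is large.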
